A study of Homo sapiens with 6 samples.

Results

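The genes described here encode stress-induced secreted factors together with the adrenomedullin axis: the peptides ADM2 and ADM with the receptor subunits CALCRL and RAMP1, the hormones GDF15 and FGF21, the stanniocalcins STC1 and STC2, and the growth factor VEGFA. These 9 genes were taken by symbol from a table of 58735 genes. They were selected on their measured values in the comparison below, the fold changes between FUBP1 knockdown and control, so these fold changes are given as a description and carry no p-value.

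The study asked how loss of FUBP1, a protein that binds single-stranded DNA and RNA and regulates transcription and splicing, altered the transcriptome of osteosarcoma cells. Bulk poly(A) RNA was sequenced from MG63, an established osteosarcoma cell line, which had received, 48 h earlier, either siRNA targeting FUBP1 (siFUBP1, n = 3) or a negative control siRNA (siMock, n = 3). All 6 samples came from this 1 line, without drug treatment, and nothing in the labels says that replicates were separate cultures, so the spread between them may be technical.

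In cells under amino acid shortage, protein misfolding or mitochondrial damage, kinases that phosphorylate the translation factor eIF2 raise production of the transcription factor ATF4, in what is called the integrated stress response. ATF4 and its partners drive genes for amino acid synthesis and transport and also several secreted hormones, among them GDF15 and FGF21. Adrenomedullin, stanniocalcins and VEGFA are known as well for their induction by low oxygen, through hypoxia-inducible factors.

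The 6 libraries held 16309900 to 17484313 counted reads each. The targeted gene, FUBP1, had 3872, 4331 and 4282 reads in the siMock libraries and 749, 752 and 926 in the siFUBP1 libraries, a log2 fold change of -2.44 (SE 0.0895, adjusted p = 1.90e-17), so that 18.4% of the control level was left. The labelled cell type was checked against 7 osteoblast and mesenchymal markers, of which only COL1A1 and VIM had at least 10 reads in every library. COL1A2 was at 0 in all 6 libraries, SPARC had at most 5 reads, THY1 at most 2 and ALPL at most 1, while RUNX2 had 6 to 8 reads in siMock and 39 to 97 in siFUBP1. The defining markers of the labelled cell type were thus largely absent, and the summed level of the 7 markers was 256 to 272 CPM in siMock and 234 to 261 in siFUBP1, where CPM are a gene's reads scaled to a common library size. Within that sum the markers moved in opposite directions, as COL1A1 fell by 1.31 on the log2 scale (SE 0.0791, adjusted p = 1.83e-13), RUNX2 rose by 3.15 (SE 0.368, adjusted p = 4.53e-08) and VIM had a log2 fold change of 0.38 (SE 0.0805, adjusted p = 2.10e-04). RUNX2 had under 10 reads in every siMock library and was tested only through siFUBP1, so nothing is read from its p-value. Of 9 markers of epithelial, endothelial and immune cells, EPCAM and CDH5 had at least 10 reads in every library, CD3E was at 0 in all 6 libraries, and their summed level was 7.93 to 10.2 CPM in siMock and 7.08 to 8.40 in siFUBP1. The part of these marker levels in the results below was not tested. In such bulk samples, fewer cells of a type and less RNA per cell cannot be told apart.

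Of 16116 genes with enough reads to be tested, 1315 (8.16%) were called higher and 1472 (9.13%) were called lower after FUBP1 knockdown, a call meaning an adjusted p below 0.05 by edgeR's quasi-likelihood test and an absolute log2 fold change above 1. The median log2 fold change of all tested genes was 0.00197. Of the 9 genes described here, 6 could be tested, and FGF21, CALCRL and RAMP1 had too few reads. The calls of the 6 were 4 higher (ADM2, GDF15, STC2 and VEGFA) and 0 lower, with ADM and STC1 not called. Nothing is read from that count, since this contrast chose the genes. The count was 5 with no filter on low counts and by DESeq2, where FGF21 was tested and called as well, and 3 without siMock replicate 3 or without siFUBP1 replicate 2, where GDF15 lost its call.

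The study designed 3 siRNAs against FUBP1, and which of them gave the sequenced samples was not given in the sources used here. Their guide strands are shown because the first bases of a guide can also pair with the 3′ ends of unintended mRNAs. Capitals mark the seed, bases 2 to 8 from the 5′ end, and the last bases in DNA letters are the overhang.
RNAi#1: uAAACUGAaugcgaacacctt
RNAi#2: uAAGAGGUuugucagcacctt
RNAi#3: uUUCUUCUaugaguugccgtt
The complement of the RNAi#1 seed occurred 1 time in the 3′ UTR of ADM2, 2 times in that of STC2 and 1 time in that of CALCRL. The complement of the RNAi#2 seed occurred 1 time each in those of STC1 and CALCRL, and that of the RNAi#3 seed 1 time each in those of ADM and CALCRL. None of the 3 occurred in the annotated 3′ UTRs of GDF15, FGF21, VEGFA or RAMP1. Over 12574 tested genes with an annotated 3′ UTR, 22.8%, 14.1% and 22.4% held a match to the seeds of RNAi#1, RNAi#2 and RNAi#3. A match says only that these letters are present.

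ADM2 encodes adrenomedullin 2, also called intermedin, a vasodilating peptide of the calcitonin family. The gene (ENSG00000128165) lies on the plus strand at chr22:50481556-50486440 of GRCh38. It had 40, 13 and 10 reads in siMock replicates 1, 2 and 3 and 313, 423 and 251 reads in siFUBP1 replicates 1, 2 and 3. Every siFUBP1 library lay above every siMock library, and siMock replicate 1 stood above the other two controls. The scaled level was 1.28 ± 1.01 CPM in siMock and 19.1 ± 5.02 CPM in siFUBP1 (SD, n = 3 each), a log2 fold change of 3.88 (SE 0.435). This value was 4.74 when siMock replicate 1 was left out, and 2.06 on the log2(FPKM + 1) scale, which understates changes of genes with low values.

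ADM encodes adrenomedullin itself, a vasodilating peptide induced by low oxygen in many cell types (ENSG00000148926, plus strand, chr11:10304680-10307397). It had 1533, 1152 and 1257 reads in siMock and 1430, 1633 and 1662 in siFUBP1. The groups overlapped, with siMock replicate 1 above siFUBP1 replicate 1 also after scaling. Its level was 80.6 ± 13.1 CPM in siMock and 91.2 ± 5.79 CPM in siFUBP1 (SD, n = 3 each), a log2 fold change of 0.18 (SE 0.0954) that was not called in any of the 15 alternative analyses. The paralogous peptides thus had unlike values in the same libraries. In FPKM, which divides the reads of a gene by its length and the library's size, ADM exceeded ADM2 by 60.3 to 198 times in the siMock libraries and by 6.07 to 10.4 times in the siFUBP1 libraries. These ratios depend on the length used. The deposited length of ADM is 2718 bases and its longest coding transcript has 1889, where ADM2 has 4276 by either.

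CALCRL encodes the seven-helix receptor through which adrenomedullin peptides and calcitonin gene-related peptide signal, and RAMP1 encodes a single-pass partner that sets its ligand preference. CALCRL (ENSG00000064989, minus strand, chr2:187343129-187448460) had 0 reads in each siMock library and 3, 0 and 0 in siFUBP1. RAMP1 (ENSG00000132329, plus strand, chr2:237858893-237912114) had 0 reads in each siMock library and 0, 0 and 1 in siFUBP1. A count of 0 allows up to 3 reads, or 0.172 to 0.184 CPM in 1 library, so both genes were at or under the limit in all 6 libraries and no fold is given. A non-coding RNA gene antisense to CALCRL, AC007319.1, shares 0 exonic bases with it and had 4 to 9 reads in siMock and 12 to 23 in siFUBP1. The partners RAMP2 and RAMP3, which turn CALCRL into adrenomedullin receptors, had 2 reads in 1 library and 0 in all others. The calcitonin receptor CALCR had 1 read in all, and the candidate receptor GPR182 at most 3 in a library. ACKR3, a scavenging receptor for adrenomedullin, was in contrast measured in every library, with 529, 567 and 514 reads in siMock and 569, 479 and 603 in siFUBP1, a log2 fold change of -0.04 (SE 0.0977, adjusted p = 0.729).

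Among 15 further genes of the adrenomedullin family, its receptors and its processing, 7 were tested, and their median log2 fold change was 0.0740. Of the 7, 0 were called in either direction, beside 17.3% of all tested genes. By adjusted p alone, with no limit on the fold, 2 were higher and 1 was lower, where 30.1% of all tested genes passed in each direction. PAM, the enzyme that amidates the peptide's end and makes it active, had a log2 fold change of 0.41 (SE 0.0830, adjusted p = 1.41e-04). CPE, which trims peptide precursors, had 0.51 (SE 0.120, adjusted p = 6.60e-04). IDE, a peptide-degrading protease, went the other way with -0.99 (SE 0.0867, adjusted p = 2.85e-10), just inside the limit on the fold, and was called at -1.07 without siMock replicate 1 at -1.05 without siFUBP1 replicate 3 and at -1.11 with a correction for GC content and length. CALCA, CALCB and IAPP, which encode other peptides of the family, were at 0 in all 6 libraries. ADM5, a further listed gene of the family, had 17, 21 and 18 reads in siMock and 19, 22 and 26 in siFUBP1. Its log2 fold change was 0.18 (SE 0.340, adjusted p = 0.672).

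**Figure D1:**
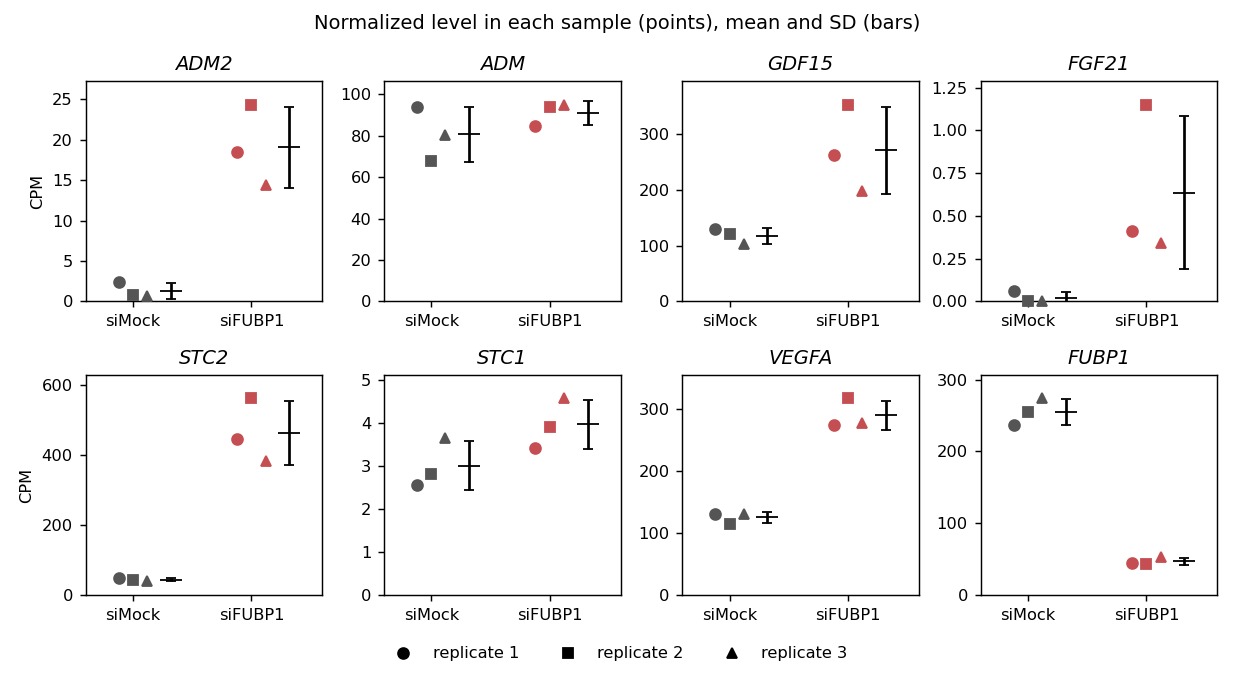
Scaled level (CPM, linear axis from 0) of 7 secreted factors and of the targeted gene FUBP1 in each of 3 siMock (grey) and 3 siFUBP1 (red) libraries, with the mean and SD as black bars and a symbol for each replicate number. The groups stand apart for ADM2, GDF15, FGF21, STC2 and VEGFA, overlap for ADM and STC1, and siFUBP1 replicate 2 is the top point for ADM2, GDF15, FGF21, STC2 and VEGFA.

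The plot of scaled levels by sample shows these patterns for the secreted factors side by side. Of the 6 genes that were tested, 4 had groups that did not overlap, against 63.9% of all tested genes (32.2% with siFUBP1 above), and nothing is read from that count either. siFUBP1 replicate 2 had the highest level of its group for ADM2, GDF15, STC2 and VEGFA, 4 of the 6 tested, whereas 33.4% of all tested genes were highest there. siMock replicate 1 was the highest control for ADM2, ADM, GDF15 and STC2, again 4 of 6, with 35.1% over all tested genes. The remaining top libraries were siFUBP1 replicate 3 for ADM and STC1 (2 of 6, against 35.8%) and siMock replicate 3 for STC1 and VEGFA (2 of 6, against 36.2%). siFUBP1 replicate 1 and siMock replicate 2 were highest for 0 of the 6, against 30.8% and 28.6%. The ratio of highest to lowest library within a group was 3.83 in siMock and 1.70 in siFUBP1 for ADM2, and 1.14 and 1.15 for VEGFA. The median ratio over all tested genes was 1.20 in siMock and 1.19 in siFUBP1, so VEGFA varied less than the median gene and ADM2 more. Such ratios include counting error, which is larger at low counts, and its part was not tested. In siMock ADM2 had 10 to 40 reads and VEGFA 1959 to 2126.

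GDF15 encodes a stress hormone of the TGF-beta superfamily that lowers appetite through a receptor in the hindbrain (ENSG00000130513, plus strand, chr19:18374731-18389176). It had 2128, 2056 and 1602 reads in siMock and 4430, 6132 and 3460 in siFUBP1. Each siFUBP1 library lay above each siMock library, with a wide spread in siFUBP1. The level was 118 ± 14.1 CPM in siMock and 271 ± 77.9 CPM in siFUBP1 (SD, n = 3 each), a log2 fold change of 1.20 (SE 0.245) or 2.30-fold. Without siFUBP1 replicate 2 the log2 fold change was 0.97, under the limit for a call, and without siMock replicate 3 it was 1.11 and missed the adjusted p. The highest value over all alternatives was 1.38.

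FGF21 encodes a hormone that the liver releases on fasting and other tissues release under stress (ENSG00000105550, plus strand, chr19:48755559-48758333). It had 1, 0 and 0 reads in siMock and 7, 20 and 6 in siFUBP1, the highest again in siFUBP1 replicate 2. Every siFUBP1 library lay above the controls, but the gene had at least 10 reads in only 1 library and was not tested. Pooled over libraries there were 33 reads against 1, a ratio of 33.4 in CPM that rests on 1 siMock read. The ratio is a description only, since this contrast chose the gene.

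Promoter windows of 250 bases before to 50 after the RefSeq start (GRCh38.p14) were held for 6 of the 9 genes, and the table has none for STC1, VEGFA and RAMP1. Both strands were searched for TGATGNAA, the core shared by amino acid response elements, for TGATGCAAT, a longer form that contains it, for the hypoxia response core ACGTG and for the cyclic AMP response element TGACGTCA. The windows with a match are shown with the match in capitals, each read along its gene's own strand.
FGF21, chr19:48755459-48755487, plus strand: aaacaccaggATTGCATCAgggaggagga
CALCRL, chr2:187448310-187448337, minus strand: ggggtcagagTGATGTAAcaggaagctc
The FGF21 match is TGATGCAAT on the opposite strand and begins 55 bases upstream of the start. This motif occurred in 0.236% of 35116 promoters of the same length. The CALCRL match is TGATGNAA and begins 75 bases upstream, and that motif occurred in 3.62% of all promoters. CALCRL, with its match, had at most 3 reads in a library, and the windows of ADM2, ADM, GDF15 and STC2 held none of the 4 motifs. ACGTG and TGACGTCA occurred in 0 of the 6 windows and in 21.4% and 1.85% of all promoters. Sequence outside the windows, such as other starts of these genes, was not searched. The GDF15 window, chr19:18385908-18386207, does not hold the annotated gene start at 18374731.

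The receptors of both hormones are known. GDF15 signals through GFRAL with RET, and GFRAL had 0 reads in all 6 libraries and RET 1 read in all. FGF21 binds FGFR1 with the co-receptor KLB. FGFR1 had 1672, 1716 and 1467 reads in siMock and 2141, 2177 and 2105 in siFUBP1, a log2 fold change of 0.33 (SE 0.0757, adjusted p = 5.78e-04). KLB had 62, 50 and 39 reads in siMock and 30, 19 and 39 in siFUBP1, a log2 fold change of -0.85 (SE 0.282, adjusted p = 0.0110), with siMock replicate 3 and siFUBP1 replicate 3 at equal counts. After scaling these were 2.49 and 2.23 CPM, and the groups did not overlap. Neither FGFR1 nor KLB was called. FGFR3, another receptor of the family, had 947, 938 and 774 reads in siMock and 551, 483 and 541 in siFUBP1, a log2 fold change of -0.83 (SE 0.0934, adjusted p = 2.25e-08) under the fold limit.

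Proteases of the proprotein convertase family cut the GDF15 precursor into its mature form. PCSK6 fell by 1.06 on the log2 scale (SE 0.0939, adjusted p = 3.44e-10), from 1179, 1441 and 1347 reads to 693, 593 and 727. The call was lost without siFUBP1 replicate 2, at -0.97, with a correction for GC content and length, at -0.88, and on the log2(FPKM + 1) scale, at -0.85. FURIN, the best known member of that family, had -0.94 (SE 0.0913, adjusted p = 2.90e-09), and PCSK7 had -0.51 (SE 0.0966, adjusted p = 6.47e-05). Of the 16 genes listed as receptors and processing enzymes of GDF15 and FGF21, 9 were tested, with a median log2 fold change of -0.51. Of the 9, 0 were called higher and 1 lower, beside 8.16% and 9.13% of all tested genes. By adjusted p alone 1 was higher and 6 were lower of the 9, against 30.1% of all tested genes each way. FURIN was called as well without siMock replicate 3, at -1.02, or without siFUBP1 replicate 2, at -1.01, and KLB without siFUBP1 replicate 3, at -1.10. FGF19, a related hormone with 3, 3 and 3 reads in siMock and 10, 15 and 9 in siFUBP1, was tested and called higher when any 1 siMock library or siFUBP1 replicate 3 was left out or no filter was applied, at 1.77 to 1.95.

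**Figure D2:**
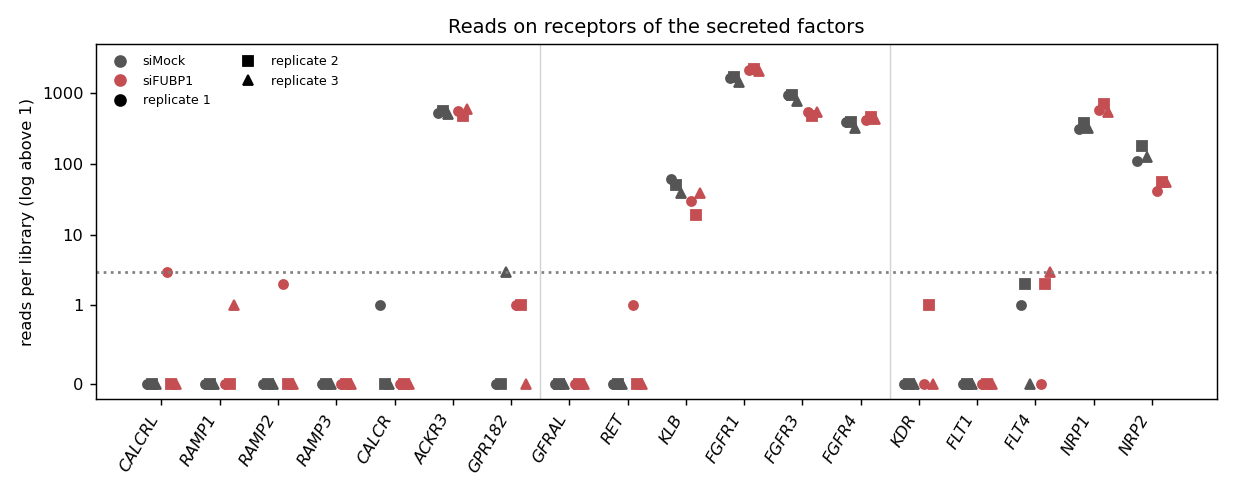
Reads per library on receptors of the adrenomedullin family (left), of GDF15 and FGF21 (middle) and of VEGF (right), in 3 siMock (grey) and 3 siFUBP1 (red) libraries, on an axis that is logarithmic above 1, with a dotted line at 3 reads. CALCRL, RAMP1, RAMP2, RAMP3, CALCR, GPR182, GFRAL, RET, KDR, FLT1 and FLT4 do not exceed 3 reads in any library, whereas ACKR3, KLB, FGFR1, FGFR3, FGFR4, NRP1 and NRP2 lie well above that line.

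STC2 encodes stanniocalcin-2, a secreted glycoprotein that inhibits the protease PAPPA and so holds back release of insulin-like growth factors (ENSG00000113739, minus strand, chr5:173314713-173329503). It had 813, 724 and 635 reads in siMock and 7519, 9756 and 6672 in siFUBP1. The lowest siFUBP1 library was far above the highest control. Its level was 44.3 ± 4.81 CPM in siMock and 462 ± 91.3 CPM in siFUBP1 (SD, n = 3 each), a log2 fold change of 3.38 (SE 0.134) or 10.4-fold. Across the 15 alternatives it stayed between 3.21 and 3.51.

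STC1 encodes stanniocalcin-1, a related glycoprotein named for its role in calcium balance in fish (ENSG00000159167, minus strand, chr8:23841915-23854807). It had 42, 48 and 57 reads in siMock and 58, 68 and 80 in siFUBP1. After scaling the groups overlapped, since siMock replicate 3 (3.64 CPM) lay above siFUBP1 replicate 1 (3.43 CPM). The level was 3.01 ± 0.562 CPM in siMock and 3.97 ± 0.575 CPM in siFUBP1 (SD, n = 3 each), a log2 fold change of 0.40 (SE 0.222) that was not called under any alternative. In FPKM, STC2 exceeded STC1 by 7.54 to 13.1 times in siMock and by 56.5 to 97.1 times in siFUBP1.

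On the axis that stanniocalcins regulate, 7 further genes were listed and 3 were tested, with a median log2 fold change of 0.70. Of the 3, 1 was called higher and 0 lower, beside 8.16% and 9.13% of all tested genes. By adjusted p alone 2 were higher and 0 lower, against 30.1% of all tested genes each way. IGFBP4, the binding protein that PAPPA cleaves, rose by 1.17 (SE 0.0819, adjusted p = 3.90e-12), from 2770, 2529 and 2172 reads to 5794, 6131 and 5785. PAPPA itself had 97, 121 and 112 reads in siMock and 193, 226 and 148 in siFUBP1, a log2 fold change of 0.70 (SE 0.162, adjusted p = 5.62e-04), under the fold limit. IGF1R, the receptor of insulin-like growth factors, had 0.10 (SE 0.0803, adjusted p = 0.314). The ligands IGF1 and IGF2 were at 0 in all 6 libraries.

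VEGFA encodes the main growth factor for blood vessels (ENSG00000112715, plus strand, chr6:43770184-43786487). It had 2126, 1959 and 2054 reads in siMock and 4648, 5508 and 4857 in siFUBP1. The groups stood far apart and the replicates were close to each other. Its level was 125 ± 9.03 CPM in siMock and 290 ± 23.6 CPM in siFUBP1 (SD, n = 3 each), a log2 fold change of 1.21 (SE 0.0822) or 2.31-fold. Corrected for GC content and for length it was 1.54, the highest value over the alternatives, and the lowest was 1.13. An annotated antisense gene, AL136131.3, shares 188 exonic bases with VEGFA and had 0 reads in every library.

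The main receptors of VEGFA were near 0, with 0 reads for FLT1 and 1 read for KDR over all 6 libraries. The co-receptors went in opposite directions. NRP2 fell by 1.52 (SE 0.197, adjusted p = 2.51e-07), from 110, 179 and 127 reads to 42, 55 and 56. NRP1 had 317, 379 and 326 reads in siMock and 590, 706 and 542 in siFUBP1, a log2 fold change of 0.77 (SE 0.106, adjusted p = 7.18e-07) that did not reach the fold limit. Of the other ligands, VEGFD, which acts on lymphatic vessels, rose by 2.54 (SE 0.491, adjusted p = 7.51e-05) from 2, 2 and 9 reads to 22, 33 and 27, and by 3.64 without siMock replicate 3. VEGFB had -0.38 (SE 0.0976, adjusted p = 1.37e-03). Over the 9 listed genes, 6 were tested, with a median log2 fold change of -0.37. Of the 6, 1 was called higher (VEGFD) and 1 lower (NRP2), beside 8.16% and 9.13% of all tested genes. By adjusted p alone 2 were higher and 2 lower, against 30.1% of all tested genes each way.

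**Figure D3:**
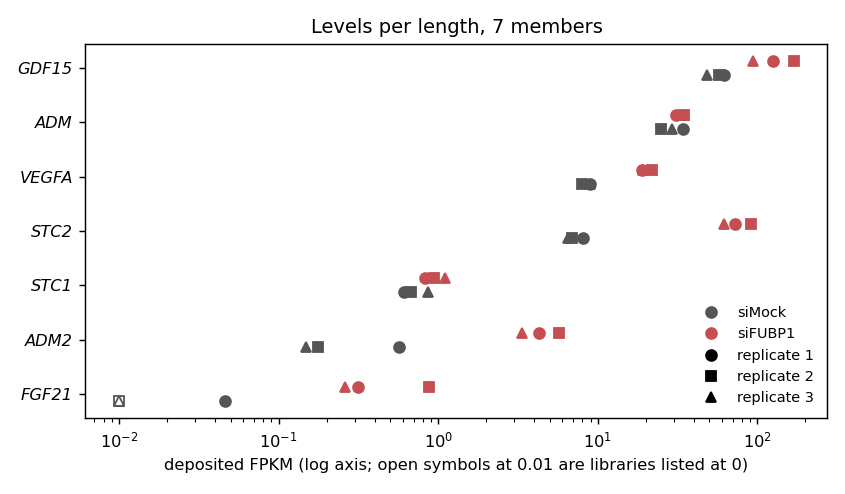
Deposited FPKM of 7 secreted factors on a log axis, ordered by the siMock mean, with 3 siMock (grey) and 3 siFUBP1 (red) libraries per gene and a symbol for each replicate. Open symbols at the left edge mark the 2 siMock libraries in which FGF21 was listed at 0. On the deposited lengths, STC2 lies with VEGFA in siMock and between GDF15 and ADM in siFUBP1.

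Levels per length, as shown in the plot of FPKM, placed GDF15 first in both groups, at 55.9 ± 6.78 FPKM in siMock and 129 ± 37.6 in siFUBP1 (SD, n = 3 each for all levels here). In siMock it was followed by ADM (29.4 ± 4.72), VEGFA (8.61 ± 0.60), STC2 (7.16 ± 0.78), STC1 (0.718 ± 0.133) and ADM2 (0.297 ± 0.234). On the deposited lengths, VEGFA at 7.92 to 8.99 FPKM and STC2 at 6.54 to 8.03 overlapped among the siMock libraries, and the other neighbours in this order did not. In siFUBP1 the order was GDF15, STC2 (75.2 ± 15.1), ADM (33.4 ± 2.16), VEGFA (18.9 in the lowest library, SD 1.70), ADM2 (4.44 ± 1.18) and STC1 (0.953 ± 0.137). FGF21 had 0.259 to 0.875 FPKM in siFUBP1 and overlapped STC1, which had 0.821 to 1.10. STC2 against GDF15 was 0.120 to 0.135 in siMock and 0.542 to 0.657 in siFUBP1, on deposited lengths. Those are 6128 bases for STC2 and 2087 for GDF15, whose coding transcripts have 5353 and 1200, so this ratio depends on the length used. The order depends on the length used for VEGFA, because the deposited length of 14431 bases joins all its exons while its longest coding transcript with a stop codon has 3535. Per length of that transcript, VEGFA had 35.1 ± 2.45 in siMock and 81.6 ± 6.92 in siFUBP1, where ADM had 48.1 ± 3.11 and STC2 86.0 ± 17.3 by their own transcripts. By these transcript lengths the siMock libraries had VEGFA at 32.3 to 36.7 and STC2 at 7.49 to 9.20, without overlap. ADM, at 35.6 to 49.1, overlapped VEGFA there.

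The genes whose scaled levels followed each factor most closely over the 6 libraries were found among 10444 coding genes, by the root mean square difference of centred log2 CPM. The points share their libraries, and the fold change between groups weighs heavily in this measure. For STC2 the closest were ALDH1L2, a mitochondrial folate enzyme (0.110), NUPR1 (0.125) and CHAC1 (0.184). For ADM2 they were NUPR1 (0.498), the asparagine synthetase ASNS (0.515) and CHAC1 (0.549), at larger distances. NUPR1 and CHAC1 were thus near both. For GDF15 they were NT5E, which makes extracellular adenosine (0.0841), MAFF (0.0949) and RAB3IL1 (0.106). For VEGFA they were OSGIN2 (0.0436), STK38L (0.0470) and DCP1A (0.0517). ADM lay nearest to SLC33A1, ZKSCAN3 and CENPV (0.0506 to 0.0613), and STC1 to ANKRD12, ETAA1 and ZNF260 (0.0589 to 0.0814).

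Regulators of the integrated stress response were the listed group with the most calls. Of 17 genes, all 17 were tested, 9 were called higher and 0 lower, and their median log2 fold change was 1.07, beside 8.16% called higher and a median of 0.00197 over all tested genes. The list was written with earlier results of these data known, so nothing is read from that count. ATF4, the central transcription factor, rose by 1.19 (SE 0.0799, adjusted p = 1.65e-12), from 3063, 2734 and 2679 reads to 6486, 7209 and 6770. DDIT3, which encodes the transcription factor CHOP, rose by 3.09 (SE 0.175, adjusted p = 1.60e-08), from 200, 134 and 124 reads to 1461, 1536 and 1124. NUPR1, a stress-induced chromatin protein, rose by 3.51 (SE 0.173, adjusted p = 5.81e-10), and CHAC1, which degrades glutathione, by 3.13 (SE 0.148, adjusted p = 4.45e-13).

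The other called genes of that list were SESN2, an inhibitor of growth signalling (log2 fold change 2.75, adjusted p = 7.27e-05), PPP1R15A, which restores translation (2.57, adjusted p = 5.90e-04), the pseudokinase TRIB3 (1.95, adjusted p = 1.27e-13), and the transcription factors CEBPG (1.21, adjusted p = 2.32e-12) and ATF3 (1.07, adjusted p = 6.80e-09). ATF3 lost its call without siMock replicate 2, at 0.95, with the correction for GC and length, at 0.92, and on the log2(FPKM + 1) scale, at 0.96. ATF5, a related factor, had a log2 fold change of -0.86 (adjusted p = 5.57e-06), and CEBPB had 0.17 (adjusted p = 0.174). The 4 kinases that start the response were not called, with EIF2AK4, the amino acid sensor, at 0.48 (adjusted p = 1.20e-05) and EIF2AK3, the endoplasmic reticulum sensor, at 0.41 (adjusted p = 3.30e-04). Within the groups, siMock replicate 1 was highest for 11 of the 17 and siFUBP1 replicate 2 for 10, against 35.1% and 33.4% of all tested genes.

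The other branches of the unfolded protein response were covered by 10 genes. All were tested, with a median log2 fold change of 0.21. Of the 10, 1 was called higher and 0 lower, beside 8.16% and 9.13% of all tested genes. By adjusted p alone 5 were higher and 1 lower, against 30.1% of all tested genes each way. ERN1, which encodes the stress sensor IRE1, rose by 1.14 (SE 0.0972, adjusted p = 1.77e-10). Its target XBP1, counted per gene over all transcript forms together, had 0.32 (SE 0.0751, adjusted p = 6.57e-04). The chaperone HSPA5 had 0.28 (SE 0.0861, adjusted p = 7.12e-03). EDEM1, which helps to degrade misfolded proteins, had 1411, 1525 and 1391 reads in siMock and 817, 928 and 1037 in siFUBP1, a log2 fold change of -0.72 (SE 0.0850, adjusted p = 5.57e-08).

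Of 23 genes of the hypoxia response, all 23 were tested, with a median log2 fold change of 0.0537. Of these, 1 was called higher and 0 lower, beside 8.16% and 9.13% of all tested genes. Without siMock replicate 1 or without siFUBP1 replicate 2 CA9 passed too, at 1.05 in both, as it did at 1.03 with the correction for GC and length, giving 2 called. By adjusted p alone 10 were higher and 3 lower of the 23, against 30.1% of all tested genes each way. CA9, a carbonic anhydrase used as a hypoxia marker, had 426, 292 and 358 reads in siMock and 711, 595 and 852 in siFUBP1, a log2 fold change of 0.92 (SE 0.148, adjusted p = 8.54e-05). HIF1A had 0.40 (SE 0.0782, adjusted p = 9.34e-05). VHL, which marks HIF1A protein for degradation, had 0.87 (SE 0.0906, adjusted p = 8.20e-09). The listed genes differed among themselves. P4HA2 had 0.92 (adjusted p = 7.46e-10) and KDM3A 0.80 (adjusted p = 1.81e-08), both under the fold limit, while EGLN2 had -0.66 (adjusted p = 5.32e-05). PDK1 and NDRG1, both induced by low oxygen, had -0.10 (adjusted p = 0.474) and -0.16 (adjusted p = 0.327).

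Of 14 other secreted factors known to respond to stress, 12 were tested, with a median log2 fold change of 0.0983. Of the 12, 3 were called higher and 0 lower, beside 8.16% and 9.13% of all tested genes. By adjusted p alone 5 were higher and 2 lower, against 30.1% of all tested genes each way. CXCL8, which draws neutrophils, rose by 3.68 (SE 0.330, adjusted p = 1.80e-09), from 10, 6 and 11 reads to 104, 182 and 85. INHBA, a subunit of activin A, rose by 3.26 (SE 0.467, adjusted p = 1.45e-06) from 11, 1 and 2 reads to 56, 49 and 40, and by 4.82 without siMock replicate 1. CXCL8 and INHBA passed the filter on low counts only through siFUBP1, so nothing is read from their p-values. INHBE, a subunit of activin E, rose by 1.70 (SE 0.210, adjusted p = 1.19e-07), from 47, 31 and 37 reads to 120, 162 and 113. IL6 had 0.90 (SE 0.169, adjusted p = 6.88e-05), and MANF, a factor secreted on endoplasmic reticulum stress, had 0.54 (SE 0.0934, adjusted p = 1.85e-05), both under the fold limit, though IL6 was called at 1.07 without siMock replicate 1. FGF2, a growth factor for many cell types, had 2105, 2498 and 2236 reads in siMock and 1309, 1881 and 1470 in siFUBP1, a log2 fold change of -0.63 (SE 0.0997, adjusted p = 1.11e-05). ANGPTL4 had -0.28 (SE 0.102, adjusted p = 0.0222) and LIF -0.07 (SE 0.0954, adjusted p = 0.562).

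**Figure D4:**
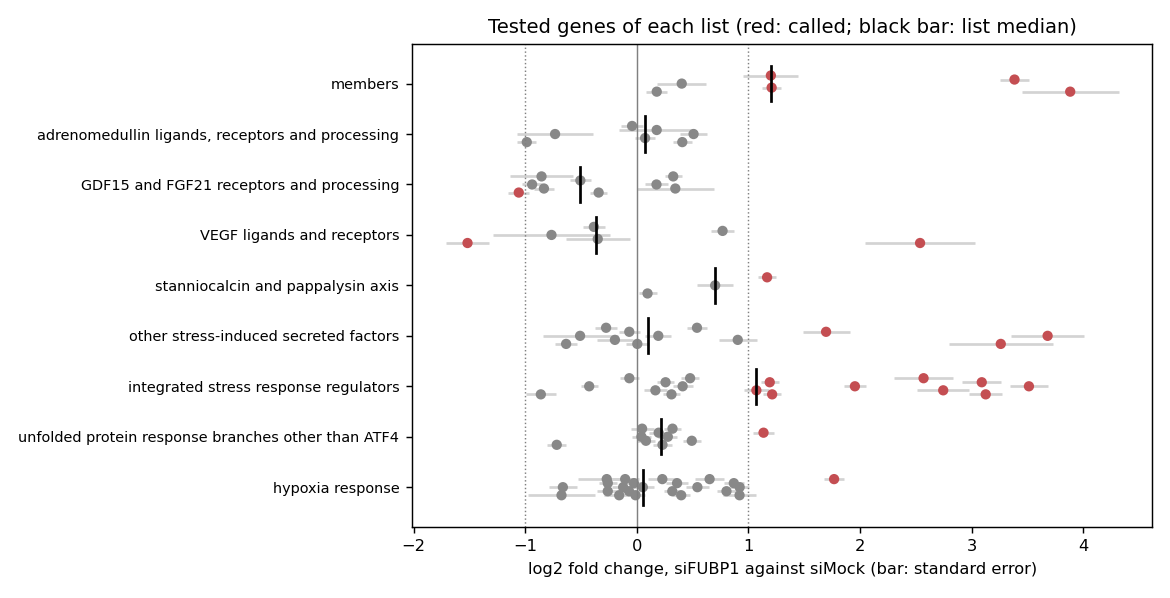
Log2 fold change (siFUBP1 against siMock) of the tested secreted factors and of the tested genes of 8 companion lists, 1 point per gene with its standard error, red where called, with the list median as a black bar, the median of all tested genes as a solid line and the fold limits as dotted lines. Stress response regulators hold 9 red points among 17, the hypoxia list 1 among 23, and the median of the secreted factors is 1.20 over 6 tested genes chosen for this contrast. The companion lists were written with earlier results of these data known.

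Over the 8 companion lists together there were 111 genes, of which 24 had too few reads to be tested and 9 of those were at 0 in every library. Among the 87 tested, 16 were called higher and 2 lower, beside 8.16% and 9.13% of all tested genes, and their median log2 fold change was 0.19. The 9 stress response regulators made up more than any other list of the 16. The lists were written with earlier results of these data known, so nothing is read from these counts.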

How the data were processed

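The deposited table held, for 3 siMock and 3 siFUBP1 samples, raw read counts per gene and FPKM, both made by the authors. Per the submitters' processing notes HISAT2 2.0.5, StringTie 1.3.3b, featureCounts 1.5.0-p3 and DESeq2 1.16.1 were used. The library kit does not mark strand, and the strand setting of the counting was not given in the sources used here. All 58735 genes matched GENCODE 29 on GRCh38. The table's columns of the authors' own comparison (group means, fold changes and p-values) were not used, and 0 sample columns were unused.

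Counts were filtered with filterByExpr (at least 10 reads), scaled by TMM (factors 0.959 to 1.05) and fitted with edgeR 4.0.16 in R 4.3.3 (robust quasi-likelihood test by group, Benjamini-Hochberg over 16116 genes), after the scripts were tested on simulated data. The common dispersion was 0.00684. CPM were computed on scaled library sizes. Standard errors are the log2 fold change over the root of F. Alternatives were DESeq2 1.42.0 (also its size factors), limma 3.58.1 on log2(FPKM + 1) and log2(FPKM + 0.1), upper-quartile scaling, other filters, a replicate block, a GC and length correction and each library left out. Limits of 3 counts cover counting error only.

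The genes and lists were chosen with earlier results of these data known. The text names all 9 genes, FUBP1, every called companion gene but 1 that is not reported here, direct receptors, ligands and regulators, and for each tested gene the 3 closest coding genes among those averaging 100 counts or more. Replicates differed by more than counting noise (chi-square per gene 5.83 to 9.45), so no library was a copy of another. Sequences of promoters are from RefSeq (GRCh38.p14), and 3′ UTRs from the longest coding transcript with a stop codon in GENCODE 29. The siRNA sequences are those listed by the study.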

Additional observations from a re-analysis of the deposited data

How the results depend on the processing

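The counts of genes called higher and lower, 1315 and 1472, fell to 462 and 588 with limma on log2(FPKM + 1) and came to 4844 and 4851 with no limit on the fold change. With each library left out in turn they ranged from 1280 to 1451 and from 1475 to 1608. The 16 companion genes called higher became 11 with limma on log2(FPKM + 1) and 40 with no limit on the fold, and ranged from 16 to 19 with each library left out. The 2 called lower became 0 with limma on log2(FPKM + 1) and 17 with no limit on the fold, and ranged from 2 to 4 with each library left out, the 4 being reached without siFUBP1 replicate 3. The cause was not tested, except that limits on the fold and the added constant act by construction. No fold change of FUBP1, of the tested genes described here or of the called companion genes changed sign. Companion genes without a call were not checked for this. The median log2 fold change of all genes, 0.00197 in the main fit, was -0.0476 with DESeq2. A recomputed gene value was held stable if its call was kept or it stayed within the spread between replicates. A list count was held stable if it was equal to the main count or within a set ratio of it. Of 645 such values for single genes and lists, 612 were stable, 22 moved and 11 companion calls were lost. Of these 11, 7 were lost on the log2(FPKM + 1) scale. Those 7 were ATF3, ERN1, INHBA, INHBE, NRP2, PCSK6 and VEGFD.

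Same-numbered samples of the groups did not deviate together in each pair (r across genes -0.00469, 0.0171 and 0.123), so the numbers were not taken as pairs. With the replicate number as a block, 1324 genes were called higher and 1469 lower, and the companion counts stayed at 16 and 2. The scaling alternatives moved the median of all genes by under 0.1 on the log2 scale. FGF21, CALCRL and RAMP1 had at most 20 reads in a library, too few to pass the filter of the main fit.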
